A study of Mus musculus with 28 samples.

Results

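Rod photoreceptors of the rd1 mouse were compared with wild-type rods at postnatal day 6 (P6). The comparison used the 7 libraries of that age, 3 from rd1 and 4 from WT, of the 28 libraries in the series, which covers P2, P4, P6, P8 and P10. The rd1 animals were homozygous for the Pde6b rd1 allele and carried the TgNrlp-GFP transgene, and the WT animals carried the same transgene without the rd1 allele. Both groups were therefore transgenic, and the GFP that marked a cell for sorting was driven by the promoter of Nrl, a gene that is itself active in rods. The strain background of either group, the sex of the animals and whether replicates came from separate litters are not given in the sources used here. The p-values therefore measure the spread between samples. That spread was estimated over all 10 groups of age and genotype in the series, with 17 residual degrees of freedom, not from P6 alone. Retinas had been dissociated with papain and GFP-positive cells sorted, and stranded libraries of polyadenylated RNA had been read as pairs of 125 bases. Each library is a bulk sample, in which fewer cells of a type and less RNA per cell cannot be told apart.

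The product of Pde6b is 1 of the catalytic chains of the phosphodiesterase of rods, which hydrolyses cGMP after light has been absorbed. Without it cGMP stays high, the cyclic nucleotide-gated channels stay open, and rd1 rods die within weeks of birth. In the first postnatal week mouse rods are still being born and have not yet built outer segments, so the cells studied here were immature.

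Totals of estimated counts were 17807615, 20820977 and 15980188 in rd1 replicates 1, 2 and 3, and 12265260, 12465503, 12767819 and 13636691 in WT replicates 1 to 4, so every rd1 library was deeper than every WT library. Replicates 1 and 3 of rd1 differed far less than any other pair of libraries compared (chi-square per degree of freedom of 1.71 over transcripts, against at least 15.5 for the other pairs at P6). They may be 1 library deposited under both names, so they were averaged and counted as 1 sample, which leaves 2 rd1 samples against 4 WT samples. WT replicate 1 stood apart: it had 25749 genes with counts (21510 to 22411 in the other 6), its 10 most abundant genes took 11.5% of its counts (3.67% to 3.95% in the others), and 6.67% of its counts were mitochondrial (2.12% to 3.17% in the others). Results are therefore given with and without WT 1. The Y-linked gene Eif2s3y was at 0 in WT 4, while Xist was at 6.73 CPM (counts scaled to a common library total) in WT 2, and every other library held both, so the makeup by sex differed among the WT libraries. Nrl and Nr2e3, which mark rods, and the photoreceptor transcription factor Crx were each above 1000 CPM in all 7 libraries. Cells had been sorted by the promoter of Nrl, so the level of Nrl is no separate check of the sort.

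Pde6b itself was measured first, because it is the mutated gene. It lies on the plus strand of chromosome 5, at chr5:108388391-108432397 in GRCm38. Its level was 422, 372 and 420 CPM in rd1 replicates 1 to 3, and 1129, 1641, 886 and 1508 CPM in WT replicates 1 to 4. All rd1 libraries thus lay well below all WT libraries. The log2 fold change, rd1 over WT, was -1.67 ± 0.327 (SE; 2 rd1 and 4 WT samples; edgeR quasi-likelihood adjusted p = 0.00389), and -1.70 without WT 1. With a single rd1 sample left the call was lost: the adjusted p was 0.109 without rd1 2 and 0.0608 without the averaged pair, although the log2 fold change was -1.57 and -1.77.

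In the transcript table the coding transcript of Pde6b passed the threshold and the retained-intron forms did not. Pde6b-001, the protein-coding form of 2799 bases, stood at 250, 209 and 251 CPM in rd1 and at 962, 1228, 674 and 1135 CPM in WT (log2 fold change -2.11 ± 0.317, edgeR adjusted p = 0.000999). Pde6b-002, which retains an intron, had 152, 133 and 151 CPM in rd1 and, in WT, 75.9, 319, 163 and 304 CPM, and the groups overlapped (log2 fold change -0.54, edgeR adjusted p = 0.676). Pde6b-003, which also retains an intron, was at 20.6 to 21.4 CPM in rd1, at 16.8 CPM in WT 1 and at 23.9 to 49.0 CPM in WT 2 to 4. For both forms the overlap came from WT 1, which had the lowest value of all 7 libraries, and every rd1 library was below WT 2 to 4. Without WT 1 their log2 fold changes were -0.80 and -0.71 (edgeR adjusted p = 0.261 and 0.373), against -2.06 for Pde6b-001 (0.00129).

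**Figure D1:**
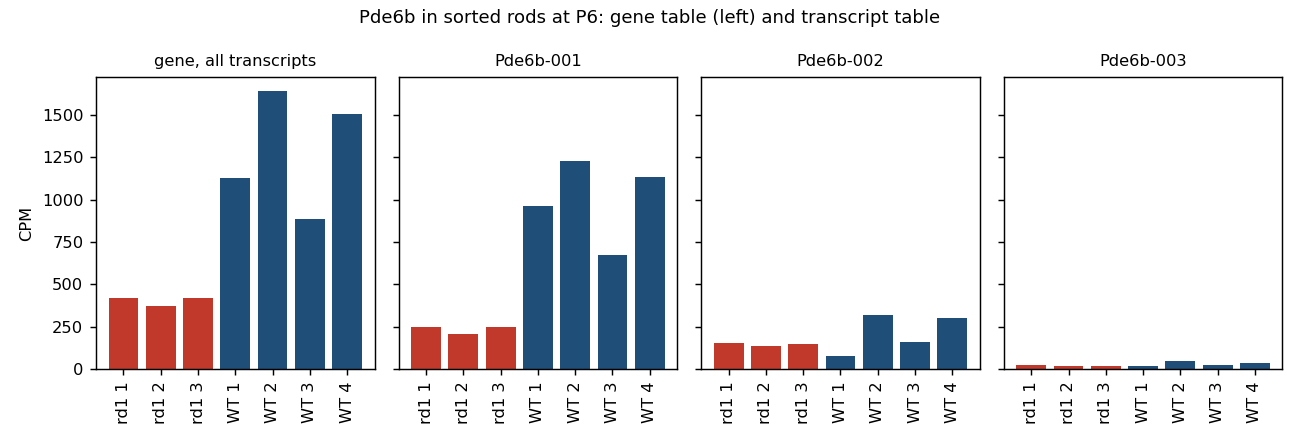
Pde6b at P6 in CPM (vertical axis), 1 bar per library, rd1 in red and WT in blue, for the whole gene and its 3 tested transcripts. In the gene and in Pde6b-001 every rd1 bar is below every WT bar, while in Pde6b-002 and Pde6b-003 the bar of WT 1 is below the rd1 bars and those of WT 2 to 4 are above them.

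Over the whole transcriptome, 489 of 18608 tested genes (2.63%) passed an adjusted p of 0.05, 272 higher (1.46%) and 217 lower (1.17%) in rd1. Of these, 482 had no overlap between the rd1 and WT samples, a pattern shown by 23.5% of all tested genes. Lower genes had moved further: their median log2 fold change was -2.27, against 1.35 for the higher genes, and 123 lower and 93 higher genes differed at least 4-fold. The median of all tested genes was -0.01. With the P6 libraries fitted alone, 216 genes passed. Without WT 1, 1023 of 18483 genes passed (5.53%), 667 higher (3.61%) and 356 lower (1.93%), and 261 of the 272 and 213 of the 217 genes were again past the threshold in the same direction.

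P4 and P8 have control libraries of their own, so the P6 genes can be read at those ages too. All 272 genes higher at P6 were also above 0 at P4 (median log2 fold change 1.14), whereas 205 were above 0 at P8 (median 0.47). Of the 217 lower genes, 216 were below 0 at P4 (median -1.88) and 173 at P8 (median -1.28). At P8, 95 of the higher and 110 of the lower genes passed the threshold in the same direction, where 3.70% of all tested genes passed in either direction (2.95% at P4). Another 3 genes that were higher at P6 were past the threshold and lower at P8.

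The largest decreases were genes with no or almost no counts in rd1 rods. Duxbl1, a double homeobox gene, was at 0 in all 3 rd1 libraries and at 19.2, 22.6, 25.5 and 38.3 CPM in WT, at least 164-fold lower if 3 counts are taken as the floor of each rd1 library (edgeR adjusted p = 1.35e-07). Fam205c was at 0 in rd1 and at 8.96, 11.2, 11.6 and 20.8 CPM in WT, at least 81.7-fold lower. Fam205a1 was also at 0 in rd1 and at 3.14 to 7.71 CPM in WT, at least 30.6-fold lower. These floors cover counting error only. Duxbl1 and Fam205a1 have near-identical copies, to which their reads can be assigned. Summed with its copies, a family of 3, Duxbl1 stood at 22.1, 24.15 and 21.0 CPM in rd1. In WT the sum was 49.5, 31.6, 51.0 and 62.1 CPM (log2 fold change -1.05 ± 0.363, edgeR adjusted p = 0.157). The family of Fam205a1, with 4 members, still passed as a sum (-7.62, edgeR adjusted p = 0.000576). Tnfrsf8, which encodes the cytokine receptor CD30, was at 0 in rd1 1 and 3, at 0.0543 CPM in rd1 2, and at 8.88, 8.27, 6.33 and 16.5 CPM in WT (edgeR adjusted p = 4.92e-06). All 4 genes kept their call when any 1 sample was left out.

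Genes with lower but present transcripts included structural and transport genes. Col17a1, a transmembrane collagen of hemidesmosomes, was at 0.806, 1.401 and 2.45 CPM in rd1 against 50.2, 113, 61.2 and 75.1 CPM in WT (log2 fold change -5.61 ± 0.436). Tmem92 was at 9.18, 13.2 and 10.3 CPM against 132, 288, 176 and 238 CPM (-4.15 ± 0.751, edgeR adjusted p = 0.00173, and 0.0508 without rd1 2 and 0.0807 without the averaged pair). Slc15a2, a proton-coupled peptide transporter, was at 5.71, 14.4 and 6.66 CPM against 64.9, 146, 130 and 191 CPM (-3.64 ± 0.505). In each of the 3 the highest rd1 library was below the lowest WT library by a wide margin. Eps8l1, an actin regulator, and Cldn34c1, of the claudin family of tight junction proteins, fell by 3.97 and 3.64 on the log2 scale, and Phf24 fell by 4.21 (edgeR adjusted p = 0.00258, and 0.117 without rd1 2).

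The largest increases were likewise mostly genes that WT rods barely expressed. Rnase9, a ribonuclease A family member, was at 8.18, 14.8 and 9.41 CPM in rd1, against 0, 0, 0.0777 and 0.0731 CPM in WT (edgeR adjusted p = 8.04e-06). Fyb, an adaptor protein of lymphocytes, was at 11.7, 10.8 and 15.2 CPM against 1.34, 0.229, 0.515 and 0.732 CPM (log2 fold change 4.11 ± 0.604). Sox30, a testis transcription factor, was at 10.6, 10.9 and 10.1 CPM against 0.616, 1.02, 0.749 and 0.781 CPM (3.72 ± 0.319). In these 3 genes every rd1 library was above every WT library. Klhl33, of the kelch-like family, reached a higher level, 79.6, 62.6 and 76.1 CPM against 3.98, 7.81, 9.01 and 7.99 CPM (3.33 ± 0.382). Glis1, a zinc finger transcription factor, and Orm2, an acute phase protein, rested on the averaged pair: their edgeR adjusted p of 0.00606 and 0.000852 became 0.249 and 0.0718 without it. Capn11, a calpain protease, was at 15.0, 15.5 and 12.9 CPM in rd1 and at 0.661, 0.0708, 4.69 and 0.696 CPM in WT, with WT 3 the highest of the 4 (3.34 ± 0.900, edgeR adjusted p = 0.0481). Its call was lost without the averaged pair (0.202), rd1 2 (0.218), WT 1 (0.0668), WT 2 (0.0992) or WT 4 (0.128).

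**Figure D2:**
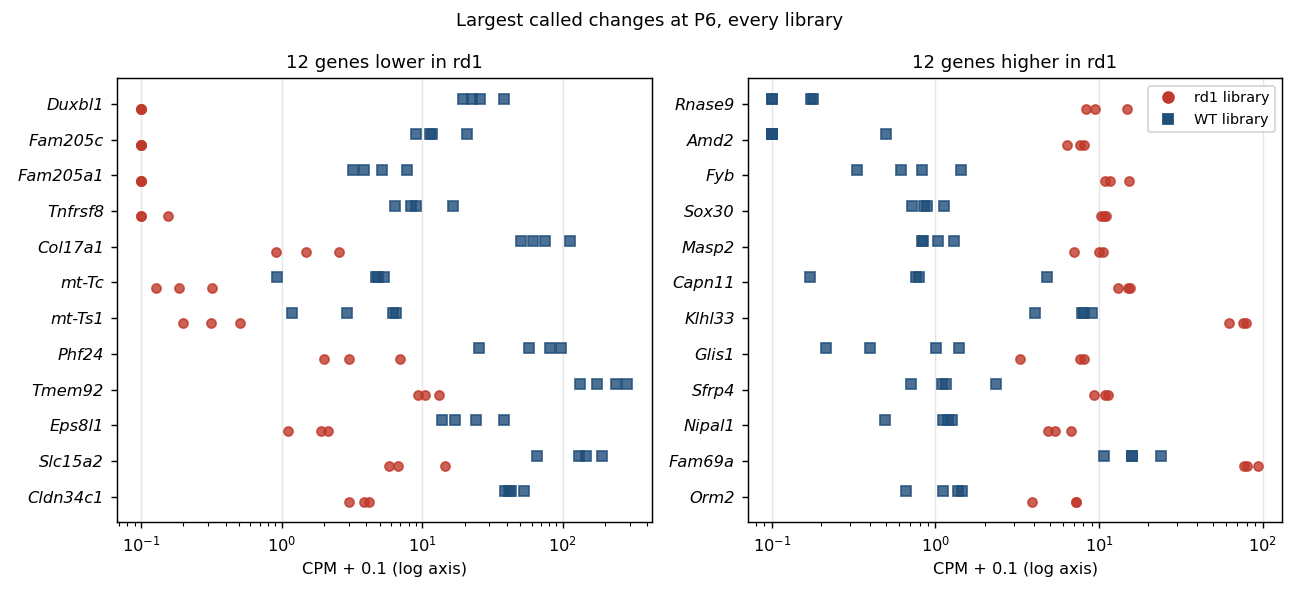
The 12 largest decreases and 12 largest increases at P6 chosen by rule, each library shown as CPM + 0.1 on a log axis, rd1 as red circles and WT as blue squares. In every gene the red and blue points are separate, and Duxbl1, Fam205c and Fam205a1 sit at the left edge in all 3 rd1 libraries.

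Among the genes with the largest increases, values at P8 ranged widely. Fyb had a log2 fold change of 4.73 at P4 and 0.47 at P8, where its edgeR adjusted p was 0.844, and the difference between its P6 and P8 effects did not pass (adjusted p = 0.134). Sox30, Masp2, Klhl33 and Sfrp4 had values at P4 and P8 between 2.78 and 5.45, all past the threshold. Masp2, a complement protease, was at 10.4, 9.91 and 6.94 CPM in rd1 and between 0.724 and 1.19 CPM in WT at P6. Sfrp4, a secreted antagonist of Wnt signalling, was at 11.3, 9.21 and 10.8 CPM in rd1 and at 2.25, 0.997, 1.06 and 0.612 CPM in WT. WT 1 was the highest of the WT libraries for both Sfrp4 and Fyb, still far below rd1.

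The called genes were not spread evenly along the chromosomes. In 5 Mb windows, 4 of 535 windows held 10 or more called genes, 74 genes in all, and 317 windows held none. Over all tested genes 2.63% were called. On chromosome 4 between 40 and 45 Mb, 25 of 106 tested genes were called (23.6%), 23 of them lower. Among these were Fam205c, Fam205a1, Fam205a4 (log2 fold change -5.90) and Phf24. Another 13 of the lower genes belonged to 1 family of 19 near-identical copies, which can share reads. Summed, that family was still lower (-5.77 ± 0.767, edgeR adjusted p = 9.08e-05). Fam205a4 was lost without the averaged pair (edgeR adjusted p = 0.0617) and without rd1 2 (0.166). On chromosome 2 between 175 and 180 Mb, 22 of 52 were called (42.3%), 21 of them lower, and all but the clone 2210418O10Rik were predicted genes. On chromosome 4 between 145 and 150 Mb, 14 of 84 were called (16.7%), 7 in each direction, with Tnfrsf8 and Ptchd2 (-3.15) lower and Masp2, Clcn6 (0.71) and Slc25a33 (0.94) higher. Without the averaged pair the edgeR adjusted p was 0.0863 for Ptchd2, 0.108 for Clcn6 and 0.0957 for Slc25a33, and without rd1 2 it was 0.131 for Ptchd2. On chromosome 14 between 50 and 55 Mb, 13 of 67 were called (19.4%), 10 of them higher. The windows were found from the calls themselves, so these counts are a description.

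The chromosome 14 window shows genes of moderate and high expression that changed together. Osgep, an enzyme of tRNA modification, was at 209, 192 and 197 CPM in rd1 against 83.0, 87.6, 71.4 and 101 CPM in WT (log2 fold change 1.23 ± 0.170, edgeR adjusted p = 6.22e-05). Pnp, purine nucleoside phosphorylase, was at 65.3, 88.4 and 67.8 CPM against 20.1, 13.2, 16.6 and 15.3 CPM (2.28 ± 0.246). Parp2, a DNA repair polymerase, was at 73.7, 86.5 and 71.9 CPM against 33.1, 46.9, 43.9 and 44.9 CPM (0.95 ± 0.147). All 3 were above every WT library and kept their call when any 1 sample was left out. At the transcript level the rise of Osgep was in Osgep-008, a retained-intron form of 586 bases. It was at 75.8, 69.4 and 69.7 CPM in rd1 and at 18.5 to 29.7 CPM in WT (1.52 ± 0.274, edgeR adjusted p = 0.00596). The protein-coding Osgep-001 and Osgep-004 had log2 fold changes of -0.01 and 0.19 and did not pass. Rnase9, Rnase11 (4.67) and Klhl33 lie in the same window of chromosome 14. Rnase11 was lost without rd1 2 (edgeR adjusted p = 0.0761).

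The surroundings of Pde6b were read because a mutant allele is carried with its flanking DNA. Among the 40 protein-coding genes on each side of Pde6b, which span chr5:104435118-110448503, 59 were tested and 7 were called (11.9%, against 2.63% of all genes), 5 of them higher. Fam69a, a kinase-like gene between Hfm1 and Pde6b, was at 80.2, 93.8 and 77.2 CPM in rd1 and at 10.6, 15.8, 23.7 and 15.8 CPM in WT (log2 fold change 2.43 ± 0.212). Hfm1, a helicase of meiosis, was at 1.67, 2.27 and 1.51 CPM against 9.70, 12.9, 10.4 and 15.6 CPM (-2.61 ± 0.312). Zfp605 (1.12), Fbrsl1 (1.03), Crlf2 (1.68) and Lpcat2b (1.49) were also higher and Gm15446 (-1.90) lower. Summed with its near-identical copies, a family of 3, Gm15446 did not pass (-0.55, edgeR adjusted p = 0.239). Fbrsl1 was lost without the averaged pair (edgeR adjusted p = 0.219). Crlf2, a cytokine receptor subunit, was at 16.6, 13.6 and 19.0 CPM against 7.54, 3.77, 4.04 and 4.45 CPM (edgeR adjusted p = 0.0051, and 0.142 without the averaged pair). Lpcat2b rested on low counts, 2.47 to 3.67 CPM against 0.641 to 1.73 CPM (edgeR adjusted p = 0.0205). Its call was lost without the averaged pair (0.0993), rd1 2 (0.227), WT 2 (0.0551) or WT 3 (0.065). Whether these differences come from the flanking DNA was not tested.

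Some of the strongest calls came from genes with near-identical copies elsewhere in the genome, where reads of one can be assigned to the other. Of the 489 called genes, 143 had at least 1 copy of at least 97% identity over at least 80% of the shorter transcript (29.2%), against 1541 of all 18608 tested genes (8.28%). In 11 families a gene fell while its copy rose, 20 such pairs in all with identities of 98.2% to 99.71%. Ahcy, which hydrolyses S-adenosylhomocysteine in the methyl cycle, Rpl26, a ribosomal protein, and Capza1, an actin capping protein, are shown with the copy that rose. Each line is a window of 60 bases of coding sequence, or the matching bases of the copy, 5′ to 3′ from the GENCODE transcripts on GRCm38, with the bases that differ in capitals.
Ahcy: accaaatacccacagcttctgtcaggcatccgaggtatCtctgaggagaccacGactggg
Gm4737: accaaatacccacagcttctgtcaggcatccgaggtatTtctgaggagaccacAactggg
Rpl26: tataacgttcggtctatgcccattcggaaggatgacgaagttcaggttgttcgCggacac
Gm15772: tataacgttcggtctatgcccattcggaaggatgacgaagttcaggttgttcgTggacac
Capza1: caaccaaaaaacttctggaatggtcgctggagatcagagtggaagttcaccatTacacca
Gm3608: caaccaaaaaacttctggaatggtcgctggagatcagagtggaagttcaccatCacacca

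Counted from the 5′ end of the parent transcript, the differences shown are C564T and G579A for Ahcy and Gm4737, C224T for Rpl26 and Gm15772, and T670C for Capza1 and Gm3608. Over the whole alignment Ahcy and Gm4737 differ at 6 of 2083 bases, Rpl26 and Gm15772 at 2 of 438, and Capza1 and Gm3608 at 8 of 2854, besides 3 gaps. The parent transcripts are longer than these alignments, with 2543, 526 and 3193 bases. Within the aligned part, a read pair that covers no difference and no gap matches parent and copy alike. Ahcy lies at chr2:155059310-155074497 and Gm4737 at chr16:46152997-46155077, Rpl26 at chr11:68901583-68906989 and Gm15772, a processed pseudogene, at chr5:3236431-3236868. Capza1 lies at chr3:104822779-104864505 and Gm3608, a pseudogene, at chr1:105455971-105458829.

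Ahcy was at 3.93, 3.86 and 4.25 CPM in rd1 and at 43.5, 38.2, 35.4 and 26.0 CPM in WT, while Gm4737 was at 39.6, 37.6 and 39.3 CPM in rd1 and at 0.287, 0, 0 and 0 CPM in WT. The copies thus exchanged places between the genotypes. Summed, the family stood at 43.6, 41.5 and 43.5 CPM in rd1 and at 44.0, 38.2, 35.4 and 26.0 CPM in WT, with a log2 fold change of 0.26 ± 0.179 (edgeR adjusted p = 0.494). Rpl26 was at 46.1, 43.7 and 46.5 CPM against 251, 212, 256 and 205 CPM, and Gm15772 at 173, 174 and 167 CPM against 0.282, 0, 0.0877 and 0 CPM. Their family summed to a log2 fold change of -0.06 (edgeR adjusted p = 0.881), and that of Rpl21, another ribosomal protein, with 33 members of which 4 were called, to -0.04 (0.921). Capza1 was at 67.3, 76.1 and 66.6 CPM against 163, 170, 178 and 203 CPM, Gm3608 at 56.4, 69.0 and 58.2 CPM against 1.69 to 3.01 CPM, and the sum had a log2 fold change of -0.39 (edgeR adjusted p = 0.0683).

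After copies were summed in this way, 313 of 18452 features passed (1.70%), 172 higher (0.932%) and 141 lower (0.764%), and 28 of the 84 families that held a called gene. Of the 11 families with opposite calls, 2 still passed: that of Rpl15 (log2 fold change -0.81, edgeR adjusted p = 0.0277) and that of 2700060E02Rik (-0.93). The chromosome 2 cluster around 2210418O10Rik, a family of 46 with 19 called members, remained lower as a sum, at 156, 218 and 146 CPM in rd1 and at 384, 604, 504 and 653 CPM in WT (-1.50 ± 0.184, edgeR adjusted p = 3.47e-05). The assignment of reads between copies was not tested.

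**Figure D3:**
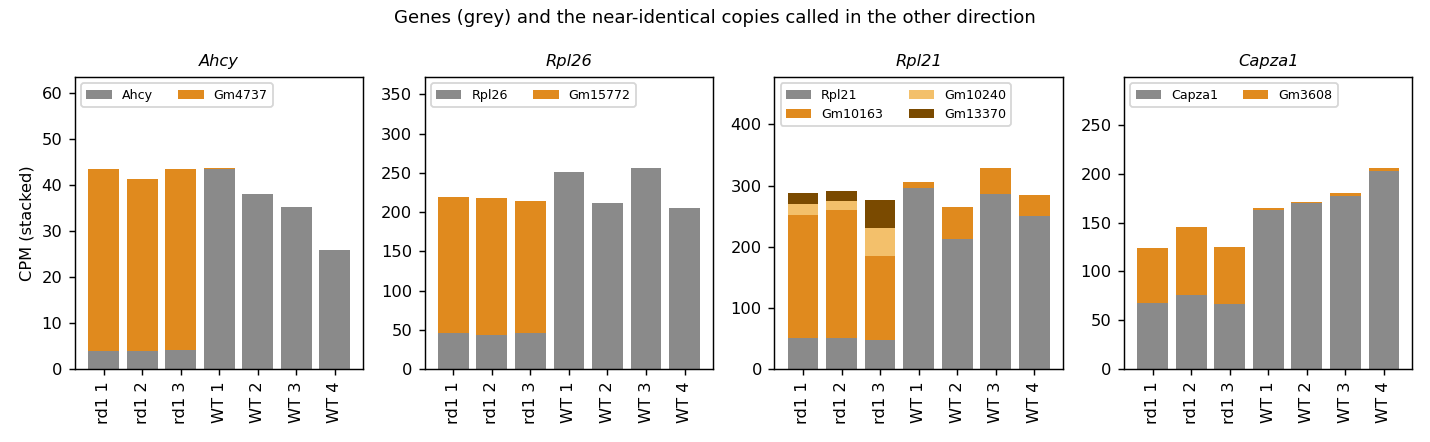
Stacked CPM of 4 genes (grey) and of the near-identical copies called in the other direction (orange and brown) in the 7 libraries at P6. For Ahcy and Rpl26 the grey part is small in every rd1 bar and fills nearly the whole WT bar, while the heights of the stacked bars overlap between the groups.

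Pde6b was the 1 rod phototransduction gene to pass at P6. Of 24 tested members of this list, 0 were higher and 1, Pde6b, lower (2.63% of all genes were called), 21 were above 0, and the median log2 fold change was 0.32 against -0.01 over all genes. At an unadjusted p under 0.05, 3120 of all tested genes passed. Cnga1, the alpha subunit of the cGMP-gated channel, was at 309, 342 and 340 CPM in rd1 and at 151, 138, 82.4 and 190 CPM in WT, so the groups did not overlap (log2 fold change 1.27 ± 0.356, edgeR adjusted p = 0.0585, and 0.0428 without WT 1). Gucy2f and Gucy2e, the guanylate cyclases that make cGMP, had log2 fold changes of 1.13 and 0.70 (edgeR adjusted p = 0.124 and 0.246). Rcvrn, the calcium sensor recoverin, was at 265, 195 and 256 CPM in rd1 and at 200, 83.1, 54.2 and 114 CPM in WT, where WT 1 lay among the rd1 libraries. Without WT 1 its log2 fold change was 1.51 (edgeR adjusted p = 0.0426), and with it 1.02 (0.258).

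Gnat1, the transducin alpha subunit, and Pde6g, the inhibitory phosphodiesterase subunit, had log2 fold changes of 0.26 and 0.44 (edgeR adjusted p = 0.848 and 0.556). The list's median was 0.60 at P4 and -0.67 at P8. At P8 Gnat1 stood at -1.996, past the threshold with an edgeR adjusted p of 0.0213. The difference between the P6 and P8 effects did not pass for Gnat1, Pde6g, Cnga1, Gucy2f, Gucy2e or Rcvrn (edgeR adjusted p of 0.0912 to 0.252).

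Of the outer segment, cilium and matrix genes, 1 of 40 was higher and 0 were lower, with a median of 0.31. The gene that rose was Rdh8, which reduces all-trans retinal after bleaching. It was at 98.7, 68.3 and 102 CPM in rd1 and at 23.7, 19.9, 13.7 and 27.97 CPM in WT (log2 fold change 2.02 ± 0.451, edgeR adjusted p = 0.0133, and 0.232 without the averaged pair and 0.0515 without WT 3). Impg1, a proteoglycan of the matrix around photoreceptors, was at 186, 177 and 188 CPM against 96.4, 103, 54.2 and 122 CPM (0.98, edgeR adjusted p = 0.133). Crb1, a polarity protein, had the lowest value of the list, -0.66 (edgeR adjusted p = 0.0946). The photoreceptor transcription factors, 20 tested, gave 0 calls and a median of 0.19. Without WT 1, 1 of the 20 was higher, Rax (1.72), where 3.61% of all genes were. Nrl, the rod fate factor whose promoter drove the GFP, was at 2645, 2333 and 2687 CPM in rd1 and at 2534, 2274, 1603 and 2169 CPM in WT (0.25, edgeR adjusted p = 0.602). Nr2e3 (0.09) and Crx (0.14) lay close to 0.

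At the transcript level a form of Rpgrip1, which anchors the cilium protein RPGR, passed the threshold although the gene did not. The protein-coding Rpgrip1-008 was at 229, 213 and 203 CPM in rd1 and at 57.5, 13.9, 6.001 and 9.70 CPM in WT (log2 fold change 3.21 ± 0.598, edgeR adjusted p = 0.00778). The retained-intron forms Rpgrip1-005 and Rpgrip1-006 fell by 1.44 and 1.96 on the log2 scale (edgeR adjusted p = 0.0237 and 0.0238). The gene as a whole had a log2 fold change of -0.21 (edgeR adjusted p = 0.839). In all, 504 of 54863 tested transcripts passed (0.919%), 231 higher (0.421%) and 273 lower (0.498%). Of these, 214 belonged to genes that were not called, and 6 genes had called transcripts in both directions (Gnb2, Hddc3, Hnrnpc, Mtcl1, Rpgrip1 and Slc25a51, chosen after their values were seen). Transcripts of 1 gene share reads, and their estimates are not independent.

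Of the nuclear genes of respiratory complex I, 0 of 36 were higher and 1 lower, with a median of 0.27 and 30 above 0. Ndufs7, a core subunit, was at 81.0, 72.8 and 86.0 CPM in rd1 and at 66.4, 48.4, 44.1 and 43.9 CPM in WT (log2 fold change 0.65, edgeR adjusted p = 0.125, and 0.85, 0.0136, without WT 1). Ndufa6, an accessory subunit, was at 45.9, 46.1 and 42.26 CPM in rd1, at 42.27 CPM in WT 1 and at 27.8, 29.1 and 30.2 CPM in WT 2 to 4 (0.51, edgeR adjusted p = 0.127, and 0.70, 0.00348, without WT 1). In both genes WT 1 lay nearer to the rd1 libraries than the other WT libraries did.

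The genes of complexes III to V gave 0 calls among 37, a median of 0.21 and 35 members above 0. These lists depended on WT 1. Without it, 10 of 36 complex I genes were higher (3.61% of all genes were) and 1 lower, and 11 of 37 genes of complexes III to V were higher, with medians of 0.37 and 0.31. Cox6a1, a subunit of cytochrome c oxidase, was at 218, 184 and 229 CPM in rd1, at 197 CPM in WT 1 and at 57.5, 69.0 and 71.7 CPM in WT 2 to 4. Its log2 fold change was 1.05 (edgeR adjusted p = 0.101) with WT 1 and 1.70 (5.18e-06) without it. Cox8a, of the same enzyme, was at 264, 245 and 268 CPM in rd1, at 264 CPM in WT 1 and at 108, 102 and 88.2 CPM in the other WT libraries (0.87, edgeR adjusted p = 0.133, and 1.43, 4.97e-06, without WT 1). The summed level of the 37 genes was 5696 to 5787 CPM in rd1, 5789 CPM in WT 1 and 4550 to 4695 CPM in WT 2 to 4, so WT 1 fell with the rd1 libraries.

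Many of these genes have short transcripts, and length moved with the fold change. The median transcript length was 849.9 bases for the complex I list and 729.8 bases for complexes III to V, against 2573 bases for all genes. Genes under 1000 bases had a median log2 fold change of 0.04 and genes over 3000 bases one of -0.04 (0.07 and -0.06 without WT 1). The part of transcript length in the list values was not tested. At P8 the medians of the 2 lists were 0.01 and 0.05.

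The 13 protein genes of the mitochondrial genome all had values below 0, with a median of -0.47, and 1 passed. mt-Nd3, a complex I subunit, was at 66.4, 101 and 68.7 CPM in rd1 and at 633, 112, 256 and 322 CPM in WT (log2 fold change -1.96 ± 0.483, edgeR adjusted p = 0.0263, and 0.156 without rd1 2 and 0.358 without the averaged pair). WT 1 was the highest and WT 2 close to rd1 2. Summed with its near-identical copy Gm28438, mt-Nd3 stood at 188, 277 and 188 CPM in rd1. In WT the sum was 633, 271, 357 and 322 CPM, so the groups overlapped (-0.76 ± 0.334, edgeR adjusted p = 0.262). Without WT 1 the median of the list was -0.01 and mt-Nd3 stood at -1.37 (edgeR adjusted p = 0.0399). The summed level of the list was 20750 to 30980 CPM in rd1, 64170 CPM in WT 1 and 22620 to 30530 CPM in WT 2 to 4. The groups thus overlapped with or without WT 1. The transfer RNA genes mt-Ts1 and mt-Tc also fell, by 4.32 and 4.497 on the log2 scale, at no more than 6.43 CPM. The edgeR adjusted p of mt-Ts1, 0.00524, became 0.177 without rd1 2 and 0.0574 without the averaged pair. That of mt-Tc, 0.0391, became 0.369 without the averaged pair, 0.227 without rd1 2, and 0.0626, 0.0703 and 0.0748 without WT 2, WT 3 and WT 4. In WT 1 mt-Tc was at 0.827 CPM, against 4.62 to 5.21 CPM in WT 2 to 4.

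Glycolysis and lactate genes gave 0 calls among 31 and a median of 0.17. Hk1 and Pfkl, the first and the committed enzyme, had log2 fold changes of 0.53 and 0.50 (edgeR adjusted p = 0.319 and 0.282). Their list had a median of 0.30 at P4 and -0.41 at P8. The lists of pyruvate, citrate cycle and glutamate genes (36) and of cholesterol synthesis genes (22) gave 0 calls, with medians of 0.01 and -0.03. Without WT 1, 1 of the 36 was higher, Mdh2 (0.48), where 3.61% of all genes were. In one-carbon metabolism 2 of 28 genes passed, among them Ahcy, treated above. Of 32 fatty acid genes 1 passed, Acot1, a cytosolic acyl-CoA thioesterase, at 21.2, 26.1 and 19.7 CPM against 9.63, 2.13, 6.13 and 2.98 CPM (2.18 ± 0.502, edgeR adjusted p = 0.0169). Its call was lost without the averaged pair (0.0816), rd1 2 (0.188), WT 2 (0.0535) or WT 4 (0.0607).

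Of 31 redox genes 1 passed. Slc7a11, the cystine transporter that feeds glutathione synthesis, was at 21.2, 24.5 and 21.0 CPM in rd1 and at 14.7, 10.7, 10.6 and 7.92 CPM in WT (log2 fold change 1.08 ± 0.216, edgeR adjusted p = 0.005, and 0.119 without rd1 2). Its coding transcript of 9223 bases, Slc7a11-001, differed far more, at 29.4, 34.8 and 27.3 CPM against 1.69, 0.977, 1.70 and 1.42 CPM (4.45 ± 0.412, edgeR adjusted p = 2.89e-06). The retained-intron form Slc7a11-002 had the opposite sign, -1.05, and did not pass (edgeR adjusted p = 0.228). The list as a whole had a median of 0.05.

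Of 30 genes of the unfolded protein and integrated stress responses, 0 passed, the median was 0.20 and 13 did not overlap between the groups (23.5% of all genes did not). Trib3, a target of the ATF4 pathway, was at 8.47, 8.86 and 9.61 CPM in rd1 and at 3.63, 5.24, 2.14 and 3.35 CPM in WT (1.33 ± 0.386, edgeR adjusted p = 0.0702). Ddit3, the transcription factor CHOP, was at 49.9, 38.0 and 46.8 CPM against 28.2, 32.3, 21.7 and 26.2 CPM (0.70, edgeR adjusted p = 0.116). Without WT 1, Gdf15 (3.51), Atf5 (0.82) and Dnajb9 (0.89) passed. Gdf15, a stress cytokine, stayed low throughout, at 1.58, 1.76 and 1.83 CPM in rd1 and at 0.658, 0, 0.352 and 0.166 CPM in WT. Of 37 cell death genes 0 passed and the median was 0.03. Without WT 1, 1 of the 37 was higher, Endog (1.55), where 3.61% of all genes were. Of 36 calcium and cGMP handling genes 0 passed, with a median of -0.17.

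Immediate early genes, which respond within minutes to stimuli and also to tissue dissociation, likewise depended on WT 1. Of 29 tested, 0 passed with WT 1 and the median was 0.71. Without WT 1, 10 were higher (3.61% of all genes were) and the median was 1.28. Jund was at 230, 182 and 241 CPM in rd1, at 182 CPM in WT 1 and at 31.8 to 45.0 CPM in WT 2 to 4 (2.49 without WT 1, edgeR adjusted p = 2.13e-05, and 1.48, 0.116, with it). Junb was at 47.7, 32.1 and 51.1 CPM in rd1, at 43.1 CPM in WT 1 and at 4.19 to 5.35 CPM in the others. Egr1 was at 347, 350 and 356 CPM in rd1, at 334 CPM in WT 1 and at 33.5 to 48.0 CPM in the others. Across the list the summed level was 2049 to 2197 CPM in rd1, 2027 CPM in WT 1 and 836 to 939 CPM in WT 2 to 4. WT 1 therefore lay beside rd1 for these genes while it lay with the other WT libraries for Pde6b. The part of dissociation in these values was not tested.

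**Figure D4:**
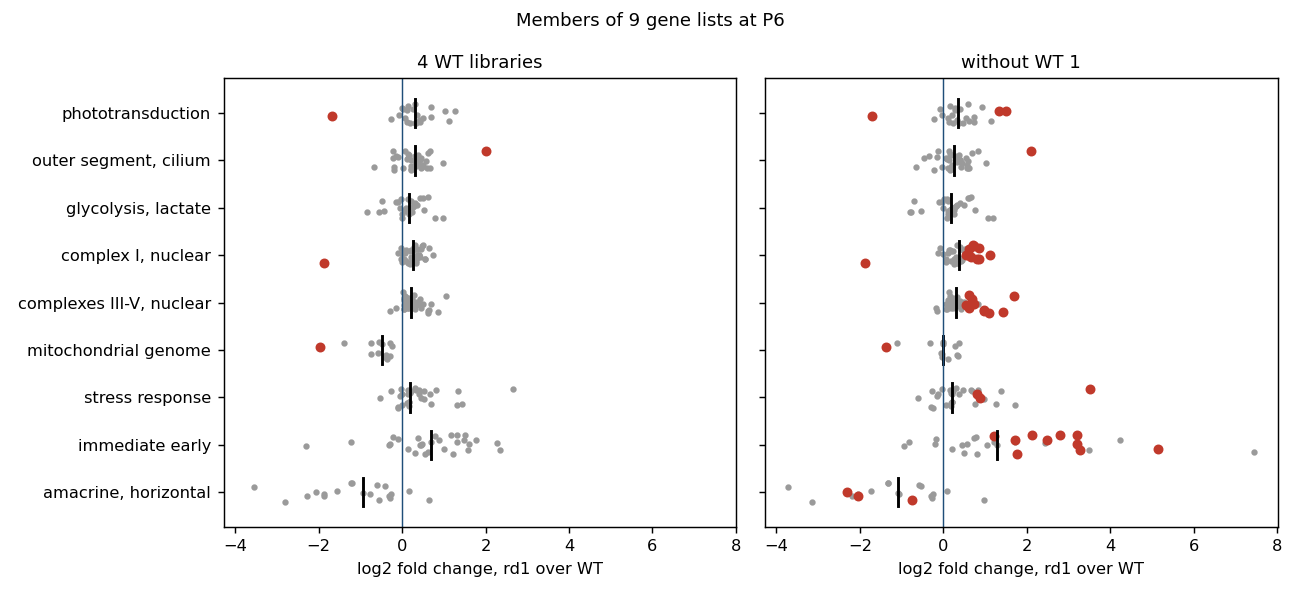
Log2 fold changes of single genes (points) in 9 lists at P6 with all WT libraries (left) and without WT 1 (right). Red points passed the threshold and the black bar is the list's median, which for the immediate early genes lies at 0.71 on the left and 1.28 on the right.

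Markers of other retinal cells were examined because a sort for GFP can carry other cells. Of 19 amacrine and horizontal markers 0 passed, the median was -0.93, 2 were above 0 and 10 did not overlap between the groups (23.5% of all tested genes did not). Without WT 1 the median was -1.09 and 3 were lower (1.93% of all genes were), the glycine transporter Slc6a9 (log2 fold change -0.74, edgeR adjusted p = 0.0319), the transcription factor Tfap2a (-2.05, 0.0429) and Gad1. Their summed level was 566 to 615 CPM in rd1, and WT 1 to 4 had 684, 883, 1371 and 1009 CPM, highest in WT 3. Gad1, the enzyme that makes GABA, was at 8.88, 6.94 and 7.97 CPM in rd1 and at 13.9, 21.9, 59.3 and 40.7 CPM in WT (log2 fold change -2.07, edgeR adjusted p = 0.113, and -2.31, 0.0451, without WT 1). Of 15 ganglion cell markers 1 passed and 12 did not overlap between the groups, beside the same 23.5% of all tested genes. Their median was -1.30 and their summed level 122 to 174 CPM in rd1 and 192 to 460 CPM in WT. The gene that passed went the other way: Nefh, the heavy neurofilament subunit, was at 35.7, 32.1 and 35.1 CPM in rd1 and at 18.5, 16.5, 15.2 and 19.6 CPM in WT (0.98 ± 0.197, edgeR adjusted p = 0.00484, and 0.115 without the averaged pair).

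The remaining marker lists held few calls. Cone (14), bipolar (18), Müller glia and astrocyte (19), microglia and macrophage (16), vessel (16), pigment epithelium (11) and erythroid (7) markers gave 0 calls each, with medians of -0.13, -0.04, 0.02, -0.40, -1.62, -0.89 and 0.28. Without WT 1 the cone and microglia medians turned to 0.05 and 0.26, and the others were -0.03, 0.17, -1.73, -0.98 and 0.21. Without it 4 of these lists gave 1 call each: Sox9 of Müller glia (1.93, edgeR adjusted p = 0.0104) and the macrophage marker Cd68 (1.404, 0.014) were higher, and Tek of vessels (-4.02, 0.0327) and Tyr of pigment epithelium (-3.33, 0.0349) were lower. Vessel markers summed to 217 to 324 CPM in rd1 and 190 to 494 CPM in WT, and microglia markers to 49.8 to 67.2 CPM and 31.5 to 139 CPM, so both overlapped. The sums of cone, Müller glia and erythroid markers overlapped too. Bipolar markers summed to 1517 to 1569 CPM in rd1 and 1689 to 2028 CPM in WT, with no overlap. Pigment epithelium markers summed to 18.1 to 22.1 CPM in rd1 and 30.1 to 47.4 CPM in WT, also with no overlap. Of 38 proliferation and progenitor markers 1 passed. Bub1b, a mitotic checkpoint kinase, was at 12.1, 17.0 and 16.4 CPM in rd1 and at 47.0, 55.6, 50.4 and 84.3 CPM in WT (-1.89 ± 0.451, edgeR adjusted p = 0.0213, and 0.289 without the averaged pair, 0.182 without rd1 2 and 0.0597 without WT 4). The other members of that list did not pass, and the list's median was -0.21. Without WT 1, Hes5 was higher (1.49) and Bub1b lower (-1.96), both past the threshold, and the median was -0.13.

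Genes of inner retinal neurons occurred among the calls outside the marker lists, chosen after their values were seen. Scn3a, a sodium channel, was at 2.04, 3.07 and 3.60 CPM in rd1 and at 10.9, 20.1, 49.5 and 19.8 CPM in WT (log2 fold change -3.03, edgeR adjusted p = 0.0483). Gabra3 and Glra2, subunits of GABA and glycine receptors, fell by 2.60 and 2.26 on the log2 scale, and Tnr and Ptprt by 2.62 and 2.38. WT 3 was the highest library for all 5 genes, as it was for the summed amacrine and horizontal markers. All 5 calls were lost without WT 3 (edgeR adjusted p of 0.0703 to 0.131), and also without the averaged pair (0.179 to 0.363) or rd1 2 (0.308 to 0.362). Those of Scn3a, Glra2, Tnr and Ptprt were lost without WT 4 (0.0545 to 0.0642), and that of Scn3a without WT 2 (0.0602). At P8 none was called, with log2 fold changes of 0.00 to 0.99. The part of other cells in these values was not tested.

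Whether the genotype effect at P6 differed from other ages was tested directly. Against the mean effect of P2, P4, P8 and P10, 1 of 18608 genes passed (0.00537%), the pseudogene Rps2-ps10, at 267, 224 and 263 CPM in rd1 and at 0.876 to 2.85 CPM in WT at P6 (edgeR adjusted p = 0.0414). At an unadjusted p under 0.05, 745 genes passed. Leaving out any 1 sample ended that call. At P6 every rd1 library was deeper than every WT library, while at P8 the depths overlapped. Beyond thinning to equal depth (54 genes for P6 against P8), the part of this difference in the contrast with P8 was not tested. Against P8 alone, 80 genes passed (0.43%), 57 with a higher and 23 with a lower effect at P6, and 74 of them had opposite signs at the 2 ages. The count rested on single libraries, with 526 genes without WT 1 and 3 without rd1 2.

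Zfp949, a zinc finger gene on chromosome 9, gave the smallest p of this contrast once pseudogenes and predicted genes were left out (Rps2-ps10 had a smaller one). It was at 162, 148 and 157 CPM in rd1 and at 30.0, 43.7, 45.4 and 44.4 CPM in WT at P6 (log2 fold change 1.96 ± 0.165). At P8 it was at 38.7, 46.7, 37.1 and 43.6 CPM in rd1 and at 46.4 and 36.2 CPM in WT. The rd1 libraries at P6 therefore lay above every other library of the 2 ages, and the effects differed by 2.02 ± 0.238 (edgeR adjusted p = 0.000204). In the transcript table the rise at P6 was in Zfp949-002, at 162, 140 and 158 CPM against 5.36 to 9.88 CPM, while Zfp949-001 was at 22.2 to 32.8 CPM in rd1 and 23.6 to 36.0 CPM in WT. Chst12, a chondroitin sulfotransferase, was higher in rd1 at P6 (0.95) and lower at P8 (-1.07), and Txlna likewise (0.76 and -0.64). The P6 call of Chst12 was lost without every sample but WT 1 (edgeR adjusted p of 0.0519 to 0.364), and that of Txlna without the averaged pair (0.0878) or rd1 2 (0.149). Sh3bgrl2 was higher at P6 (0.66, edgeR adjusted p = 0.00548, and 0.0688 and 0.0775 without the averaged pair and rd1 2) and stood at -0.47 at P8 (0.0578). Thnsl1 was not called at P6 (0.21) and was lower at P8 (-1.93). The differences of these 4 genes carried edgeR adjusted p of 0.0136 to 0.0139.

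**Figure D5:**
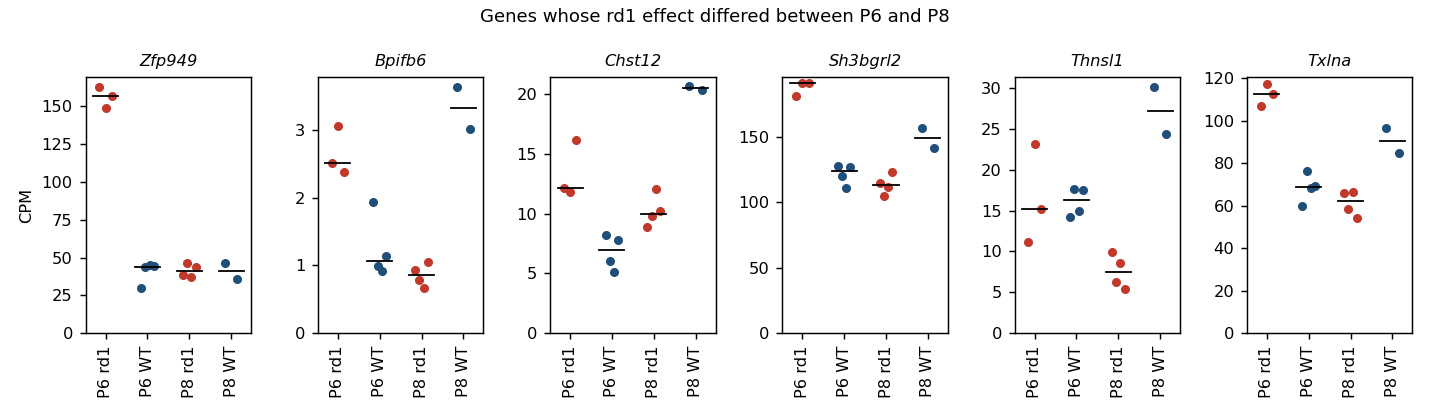
CPM of the 6 genes with the smallest p for a difference between the P6 and P8 genotype effects, pseudogenes and predicted genes left out, 1 point per library and bars at the group medians, rd1 in red and WT in blue. For Zfp949 the rd1 points at P6 lie between 148 and 162 CPM, above all other points.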

How the data were processed

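The authors deposited tables of estimated counts per gene and per transcript, and a CPM table. The labels' submitter notes name kallisto 0.42.4, edgeR 3.32.1 and GRCm38.p5. The deposited CPM equal the deposited gene counts divided by the library total and scaled (largest difference 5.8e-11). Each of the 3 tables held 1 column that matched no sample and was not used. Estimated counts were rounded and rd1 replicates 1 and 3 at P6 were averaged, leaving 27 samples. Counts were fitted with edgeR 4.0.16 (R 4.3.3): TMM scaling, filterByExpr, 1 mean for each of 10 groups of age and genotype, 17 residual degrees of freedom, two-sided quasi-likelihood tests, Benjamini-Hochberg adjustment over all 18608 genes or all transcripts tested, and a threshold of 0.05. SE was taken as the size of the log2 fold change over the root of F. Floors are 3 counts per library and cover counting error only. Alternatives used limma 3.58.1, DESeq2 1.42.0, other scalings and filters, thinning, the P6 libraries alone, a replicate block and samples left out. Copies of a gene are reference transcripts (GRCm38) aligning at 97% identity or more over at least 80% of the shorter one. The fits were tested on simulated data.

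The members and the 30 gene lists were chosen with earlier results of these data known. Named genes are Pde6b, the 12 largest changes per direction past the threshold with a mean of at least 2 CPM and no overlap of groups (pseudogenes, predicted genes, Riken clones and antisense genes only counted), up to 4 members per list by smallest p, the 6 smallest p of each test between ages, and called genes among the 40 protein-coding neighbours on each side of Pde6b. Other genes were chosen after their values were seen: the rod genes Gnat1, Rcvrn, Pde6g, Nrl, Nr2e3, Crx and Rpgrip1, the neuronal genes Scn3a, Gabra3, Glra2, Tnr and Ptprt, the copies and ribosomal genes, Dnajb9, Junb, Egr1 and Fos, the genes of the chromosomal windows, and those among the other observations. Some genes that the rule names are not reported here.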

Additional observations from a re-analysis of the deposited data

Results flagged for a closer look

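Of 121 genes examined for a WT library far from the other 3, 19 had one, and in 17 of them it was WT 1. Chance alone marks about 1 in 20 such groups when genes are drawn without regard to their values. Some of the 121, among them Dnajb9, Junb, Egr1 and Fos, were chosen after their values were seen. The count of 19 therefore cannot be set against that rate. In WT 1, Cox6a1 was at 196.7 CPM (57.5 to 71.7 in WT 2 to 4), Cox8a at 264.3 CPM (88.2 to 107.5), Ndufa6 at 42.3 CPM (27.8 to 30.2), the chaperone gene Dnajb9 at 33.2 CPM (13.7 to 17.0) and the mitochondrial protein gene Chchd10 at 53.8 CPM (14.6 to 19.0). The immediate early genes Jund, Junb, Egr1 and Fos were at 182.4, 43.1, 334.1 and 270.0 CPM in WT 1, against no more than 45.0, 5.35, 48.0 and 40.6 CPM in the other WT libraries. The retinal transcription factor Rax was at 275.1 CPM in WT 1 (87.3 to 110.4 in the others) and at 254 to 363 CPM in rd1. The macrophage marker Cd68 was at 10.3 CPM in WT 1 (3.34 to 3.96 in the others). In the other direction, Zfp949 was at 30.0 CPM (43.7 to 45.4) and mt-Tc at 0.827 CPM (4.62 to 5.21) in WT 1. The chloride transporter gene Clcn6 was at 91.1 CPM there (132.4 to 139.7) and the sodium-calcium exchanger Slc8a3 at 21.97 CPM (38.9 to 40.5). Rnase11 and Gm4737 were at 0.0862 and 0.287 CPM in WT 1 and at 0 in the other WT libraries. Outside WT 1, Amd2, a copy of the gene for a polyamine enzyme, was at 0.398 CPM in WT 4 and at 0 in the rest, and Capn11 at 4.69 CPM in WT 3 (0.0708 to 0.696 in the rest).

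The genotype effect differed between P6 and P8 by a direct test (edgeR quasi-likelihood, adjusted over all genes) for the 6 genes with the smallest p, pseudogenes and predicted genes left out. The P6 effect minus the P8 effect was 2.02 on the log2 scale for Zfp949, 3.21 for Bpifb6, 2.02 for Chst12, 1.13 for Sh3bgrl2, 2.14 for Thnsl1 and 1.399 for Txlna. Bpifb6, of the lipid-binding BPI fold family, was at 2.51, 3.05 and 2.37 CPM in rd1 and at 1.93, 0.994, 0.917 and 1.13 CPM in WT at P6, and at 0.672 to 1.05 CPM in rd1 at P8, when WT had 3.62 and 3.01 CPM. At P6 its effect did not pass (adjusted p = 0.0903), and at P8 it was lower in rd1 (0.00141).

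Rps2-ps10, a pseudogene of a ribosomal protein, differed by 7.49 between P6 and P8 (edgeR adjusted p = 6.87e-07) and by 3.16 between P6 and the mean of the other ages (0.0414). It was at 3.19 to 7.71 CPM in rd1 at P8, when WT had 9.15 and 5.61 CPM. As a copy of an expressed gene its counts are uncertain. Lpl, lipoprotein lipase, differed by -2.04 between P6 and P8 (edgeR adjusted p = 0.0354), with -1.32 at P6 (0.0109) and 0.72 at P8 (0.169).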

How the results depend on the processing

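Of 121 genes followed across settings, not all printed above, 71 passed at P6. Of these, 37 passed under every setting that tested them as single genes. Another 34 were lost in at least 1, all 34 of them without 1 sample, and none of the 71 changed sign. Members of a family were not tested singly when copies were summed. The family sums of Ahcy, Rpl26, Duxbl1 and Gm15446 did not pass then (edgeR adjusted p = 0.494, 0.881, 0.157 and 0.239). Without the averaged pair or rd1 2, 1 rd1 sample remained, assumed to vary like the other groups. Genes called at P6 numbered 196 to 1023 (489 in the report) when 1 sample was left out, 1284 with the pair apart, 808 with DESeq2 (366 higher, 442 lower), 1962 with limma-voom (1225 and 737), 216 with the P6 libraries alone and 313 with copies summed, an alternative chosen after seeing the data. Scaling, thinning to equal depth, no filter, or 1 library of the pair alone gave 451 to 713. P6 against the other ages gave 3 genes without a filter, 9 with DESeq2 and 0 when thinned, with limma-voom, with copies summed or without any 1 sample. P6 against P8 gave 50 with RLE scaling, 529 without a filter, 450 with the pair apart, 608 with DESeq2, 1209 with limma-voom, 51 with copies summed and 3 to 526 without 1 sample. Transcripts gave 1190 with the pair apart and 174 to 1735 without 1 sample. Signs turned, none of them past the threshold, for Nr2e3 without the pair (-0.27) or WT 3 (-0.0336), Crx without the pair (-0.0799), Thnsl1 without rd1 2 (-0.25) and Rpgrip1 without WT 2 (0.14). With 1 sample left out their values ran from -0.27 to 0.38, -0.0799 to 0.33, -0.25 to 0.55 and -0.46 to 0.14. The causes were not tested.

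Replicate numbers did not pair the samples: deviations of same-numbered rd1 and WT libraries correlated by -0.019, 0.031 and -0.022. With the number as a replicate block and the pair apart, 831 genes passed at P6, 0 against the other ages, 298 against P8 and 732 transcripts, and Rpgrip1 stood at 0.0271.

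In simulated counts with the P6 design, 60% of 2-fold and 89% of 4-fold changes were recovered, and 3.87% of calls were false. For transcripts the shares were 9% and 39%.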

Other observations

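Some called genes encode metabolic enzymes outside the lists examined, chosen here after their values were seen. Mars, methionyl-tRNA synthetase, was at 288, 264 and 318 CPM in rd1 and at 96.0, 131, 92.7 and 112 CPM in WT (log2 fold change 1.42 ± 0.168, edgeR adjusted p = 7.53e-06). Its annotated end overlaps that of Ddit3 on chromosome 10. Alad, of haem synthesis, was at 70.4, 71.7 and 72.5 CPM against 26.97, 32.7, 23.7 and 25.5 CPM (1.42 ± 0.205). Coq9, of ubiquinone synthesis, and Arg2, the mitochondrial arginase, rose by 0.93 and 1.67 on the log2 scale. In these 4 genes every rd1 library was above every WT library, and the calls passed under every setting tried. At P8 the values of Mars, Alad and Coq9 were 1.196, 0.85 and 0.70, all past the threshold, and that of Arg2 was 0.29 (edgeR adjusted p = 0.663).

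Other genes of this kind lost their call when 1 sample was left out. Gpt, alanine aminotransferase, was at 15.0, 13.2 and 15.4 CPM in rd1 and at 3.35, 7.48, 4.43 and 3.92 CPM in WT (log2 fold change 1.6 ± 0.3003, edgeR adjusted p = 0.00261, and 0.0574 without the averaged pair). Nme1, a nucleoside diphosphate kinase, was at 20.3, 21.3 and 16.1 CPM in rd1 and at 63.3, 60.4, 81.6 and 93.6 CPM in WT (-1.87 ± 0.374, edgeR adjusted p = 0.00477, 0.141 without the averaged pair and 0.081 without rd1 2). Lpl, lipoprotein lipase, was at 8.64, 9.38 and 7.43 CPM in rd1 and at 21.2, 15.2, 33.3 and 19.8 CPM in WT (-1.32 ± 0.288, edgeR adjusted p = 0.0109, 0.219 without the averaged pair and 0.111 without rd1 2). Slc8a3, a sodium-calcium exchanger, was at 19.3, 12.9 and 19.0 CPM in rd1 and at 21.97, 38.9, 40.5 and 40.02 CPM in WT (-1.10 ± 0.267, edgeR adjusted p = 0.024). Its adjusted p was 0.0574 without the averaged pair, 0.391 without rd1 2, and 0.0528, 0.0576 and 0.0604 without WT 2, WT 3 and WT 4.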
